A study of Mus musculus with 18 samples.

Results

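The 10 axon guidance genes described here are those best known for building the map of olfactory axons in the mouse: the receptors Nrp1, Nrp2, Plxna1, Plxna3, Robo2 and Epha5 and the ligands Sema3a, Sema3f, Slit1 and Efna5. They were found by gene symbol among the 23359 symbols of an RNA-seq table of sorted cells. The cells came from the main olfactory epithelium (MOE), where olfactory sensory neurons (OSNs) detect odours. All 10 were present, each in a single row. The values are TPM, in which all transcripts of a library share a fixed sum. Each gene is given as a length-corrected share of its library, so levels of different genes may be set side by side within a library. Between libraries such a share also depends on the other transcripts present, so a difference in TPM need not be a difference in amount. The study compared OSNs that express trace amine-associated receptors (TAARs), a small receptor family, with the other cells of the MOE, in which most OSNs express an odorant receptor (OR).

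All mice were labelled C57BL/6. In the first line, with the genotype TAAR5-Cre&L10-GFP and an age of postnatal day 11 to 14, the 7 GFP-positive libraries are called Taar5+ and the 9 GFP-negative libraries control. In the second line, TAAR6-Cre&ZsGreen at postnatal day 16 to 17, there was 1 ZsGreen-positive library (Taar6+) and 1 ZsGreen-negative library. The study's reporting summary differs from these labels on age and strain, with older mice and a mixed background. Controls therefore carried the same alleles as the sorted TAAR cells and differed from them in reporter fluorescence. Cre was made from the transcript of the Taar gene, and once it has acted the reporter stays on, so that the reporter marks cells that express the Taar gene or once did. The paper describes the reporter-positive cells as TAAR neurons of mixed receptor identity. In the Taar5+ libraries Taar4 averaged 2058 TPM, Taar2 891 TPM and Taar5 209 TPM. The control gate could hold any unlabelled cell of the MOE, other than OSNs as well. The labels do not say whether the libraries came from separate animals, so the p-values measure the spread between libraries, which may be partly technical.

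As background, axons of OSNs that express the same receptor converge on the same glomeruli of the olfactory bulb. Neuropilins and plexins form the receptors of class 3 semaphorins, Nrp1 with Sema3a along the anterior-posterior axis and Nrp2 with Sema3f along the dorsal-ventral axis, and in both pairs OSNs themselves make receptor and ligand in opposing amounts. Robo2 and its ligand Slit1 help to place axons along the dorsal-ventral axis, while EphA receptors and ephrin-A ligands act locally and sort neighbouring axons by contact. Axons of TAAR neurons reach a cluster of glomeruli in the dorsal bulb.

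A single control library stood apart and is taken into account throughout. In control replicate 2 only 5939 rows exceeded 0, while the other controls had 11352 to 17015, and it listed 637 of 3211 abundant genes at 0. Nrp1, Slit1 and Efna5 were listed at 0 in it and Epha5 at 0.266 TPM, whereas its Nrp2 value was the highest of the Taar5 line. An entry of 0 in such a table can be a failed estimate. Comparisons of the guidance genes are therefore given with 9 controls, and also with the other 8 where that changes a sign, a call or the size by much. Taar5+ replicate 4 had the next fewest rows above 0, 9866, while the other Taar5+ libraries had 11331 to 17808. It listed 37 of the abundant genes at 0. Its Sema3a and Sema3f were listed at 0 and its Nrp2 at 0.0292 TPM, so these low values may be failed estimates too. Among the sorted cells, Taar5+ replicate 5 had the highest OR total, 5525 TPM.

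Most of the guidance genes had broadly overlapping values in Taar5+ and control libraries. Sema3a, Efna5 and Nrp2 had the lowest values relative to the controls, with Taar5+ means of 22.6%, 51.0% and 44.2% of the control means. With all 16 libraries, 0 of the 10 genes passed an adjusted p of 0.05 in limma, where 0.168% of the 12502 genes tested passed. At an unadjusted p of 0.05 there were 2 of 10, Sema3a and Nrp2, both lower, against 5.38% of all genes in that direction. All 10 genes had passed the filter on low values. Their median log2 fold change was -0.20, with 4 positive and 6 negative, and that of all genes was 0.02, with 6426 positive and 6076 negative. The whole table moved lower without control replicate 2: the guidance genes had 2 positive and 8 negative values with a median of -0.27, and all genes 4362 positive and 8098 negative values with a median of -0.17.

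Without control replicate 2, Efna5 was the only guidance gene to pass, 1 of 10, where 0.939% of genes passed in the lower direction. Without Taar5+ replicate 5 it was instead Sema3a, 1 of 10 against a background of 0.301%. With both libraries left out, a setting chosen after the data were seen, Sema3a and Efna5 passed, 2 of 10 against 2.42%. The same 2 passed when limma weighted each library by its quality, and there the background was 9.7%. Which of these genes were called thus turned on single libraries, and Nrp2 passed under none of these settings. In 0 of the 10 genes did the groups separate completely, even without control replicate 2, when 0.304% of all genes did so.

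**Figure D1:**
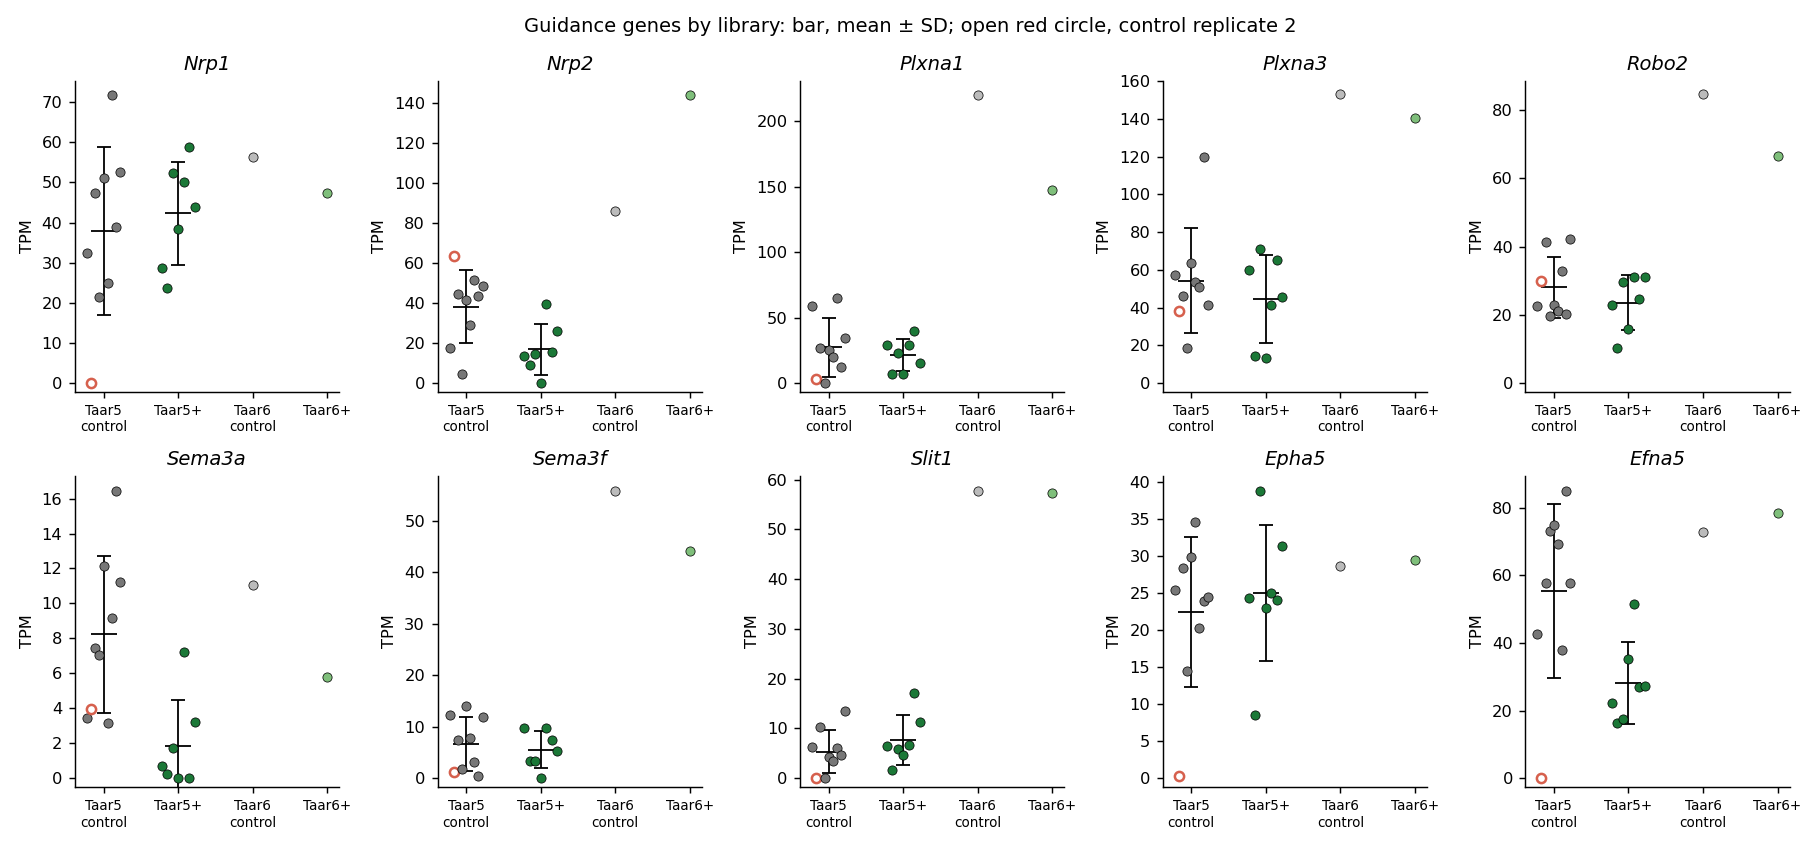
TPM of the 10 guidance genes in each library, with a panel per gene. Bars are the mean ± SD of the 9 controls and of the 7 Taar5+ libraries, and the single libraries of the Taar6 line stand to the right. Open red circles are control replicate 2. All 7 Taar5+ libraries lay below the control median for Sema3a, Nrp2 and Efna5, but the groups overlapped for all 10 genes and 0 passed the adjusted threshold in limma.

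Sema3a encodes the secreted ligand of the Nrp1 receptor complex and showed the largest difference. In Taar5+ libraries it measured 0.666, 0.218, 1.71, 0, 7.20, 0 and 3.23 TPM in replicates 1 to 7. The controls spanned 3.16 to 16.4 TPM, and their median was 7.46. Of the 7 Taar5+ libraries, 5 lay below the lowest control, replicate 7 lay just above it, and replicate 5 lay near the control median. The means were 1.86 ± 2.63 TPM (SD, n = 7) and 8.23 ± 4.48 TPM (n = 9), a log2 fold change of -1.96 (SE 0.53, interval -3.08 to -0.85) with an adjusted p of 0.2139 in limma. An exact two-sided permutation test of the same log values gave p = 0.001748 for this gene alone. Taar5+ replicate 5 held the highest Sema3a value of its group, so leaving it out could only widen the difference. Without that library the log2 fold change was -2.29 with an adjusted p of 0.04615 in limma. Among the fits that left out a single library, this was the only one in which Sema3a passed. Without control replicate 2 it was -2.06 (adjusted p = 0.069031 in limma).

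Sema3f, the ligand of the Nrp2 complex, was low in both groups. Taar5+ libraries ranged from 0 to 9.78 TPM (median 5.26) and controls from 0.34 to 14.0 TPM (median 7.41). The ranges overlapped almost entirely. Its log2 fold change was -0.12 with an interval of -1.47 to 1.22 (adjusted p = 0.9892 in limma), so a change of over 1 log2 unit either way was not excluded. The log2 fold change was -0.29 with replicate 2 of the controls left out. With Taar5+ replicate 4 left out, where Sema3f was listed at 0, it was 0.28 (adjusted p = 0.9584 in limma).

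Nrp1, the ligand-binding receptor for Sema3a, was found at 28.6, 23.7, 52.2, 38.4, 50.2, 58.9 and 43.9 TPM in the Taar5+ libraries. The controls, apart from the listed 0 in replicate 2, ran from 21.4 to 71.7 TPM. Every Taar5+ library lay within the control range, and the mean of 42.3 ± 12.8 TPM (SD, n = 7) was 99.3% of the mean of those 8 controls. With 9 controls the log2 fold change was 0.62 (interval -0.78 to 2.02, adjusted p = 0.95461 in limma), and with 8 it was 0.025 (interval -0.58 to 0.63, adjusted p = 0.98948 in limma). The narrower interval leaves out any change of 1 log2 unit.

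Nrp2, the receptor for Sema3f, measured 13.6, 8.83, 14.6, 0.0292, 39.7, 15.5 and 25.9 TPM in the Taar5+ libraries. The controls spanned 4.30 to 63.4 TPM, and their median was 43.5. All 7 Taar5+ libraries lay below the control median, and 6 of the 9 controls lay above the highest Taar5+ library, but the low values of control replicates 1 and 4 (17.6 and 4.30 TPM) fell among the Taar5+ values. The means were 16.9 ± 12.7 TPM (SD, n = 7) and 38.2 ± 18.2 TPM (n = 9). The log2 fold change of -1.41 (SE 0.67, interval -2.82 to -0.014) had an adjusted p of 0.701 in limma, and the exact permutation test for this gene alone gave p = 0.05087. The value rested in part on a single library: without Taar5+ replicate 4, where Nrp2 was close to 0, it was -0.82 (adjusted p = 0.9339 in limma).

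The plexins Plxna1 and Plxna3 are the signalling partners of the neuropilins. Plxna1 ranged from 6.55 to 39.9 TPM in Taar5+ libraries (median 22.7) and from 0.0671 to 65.1 TPM in controls (median 24.8). Plxna3, with the highest mean of the 10 genes in Taar5+ cells, ranged from 13.0 to 71.2 TPM there (median 45.8) and from 18.7 to 119.7 TPM in controls (median 50.8). Neither passed the test. The log2 fold change was 0.14 for Plxna1 (interval -1.42 to 1.71, adjusted p = 0.9892 in limma) and -0.38 for Plxna3 (interval -1.26 to 0.50, adjusted p = 0.95461 in limma). The direction for Plxna1 turned without control replicate 2, to -0.11.

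Robo2, a receptor for Slit proteins, had the smallest SE of the group, 0.34 log2 units. It measured 22.8, 10.2, 29.6, 15.8, 31.1, 24.5 and 30.9 TPM in Taar5+ libraries and 19.6 to 42.3 TPM in controls (median 22.8). The means, 23.6 ± 8.04 TPM (SD, n = 7) and 28.0 ± 8.93 TPM (n = 9), differed by less than either SD. The log2 fold change was -0.27 (interval -0.99 to 0.45, adjusted p = 0.95573 in limma).

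Slit1, a secreted ligand of Robo2, was low, with 6.39, 1.61, 5.85, 4.59, 6.57, 17.2 and 11.2 TPM in Taar5+ libraries. Controls ran from a listed 0 in replicates 2 and 4 up to 13.4 TPM, with a median of 4.56. The Taar5+ mean of 7.62 ± 5.08 TPM (n = 7) stood beside 5.34 ± 4.38 TPM (n = 9) with wide overlap. The log2 fold change was 0.67 (interval -0.64 to 1.98, adjusted p = 0.94903 in limma), and without control replicate 2 it was 0.39 (interval -0.80 to 1.58, adjusted p = 0.89258 in limma).

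Efna5 encodes ephrin-A5, a membrane-anchored ligand of EphA receptors. In the Taar5+ libraries it measured 22.4, 16.4, 17.5, 35.4, 51.6, 27.1 and 27.4 TPM. In control replicates 1 and 3 to 9 it measured 42.7, 57.8, 73.3, 74.8, 69.4, 38.0, 85.1 and 57.7 TPM, and in replicate 2 it was listed at 0. Of the Taar5+ libraries, 6 of 7 lay below the lowest of those 8 controls, and replicate 5 lay among them. With 9 controls the log2 fold change was -0.51 (interval -2.01 to 1.0, adjusted p = 0.95928 in limma; exact permutation p = 0.6684). Without control replicate 2, Efna5 fell by 1.17 on the log2 scale (SE 0.27, interval -1.73 to -0.60, adjusted p = 0.039862 in limma), from 62.4 ± 16.3 TPM (SD, n = 8) to 28.2 ± 12.2 TPM (n = 7). Leaving out 1 library thus moved the value and changed the call.

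Epha5, an EphA receptor that binds ephrin-A5, had similar means in both groups. The Taar5+ libraries measured 24.3, 8.52, 38.8, 23.0, 25.1, 24.1 and 31.4 TPM. The controls other than replicate 2 ran from 14.5 to 34.7 TPM, and their mean and that of the Taar5+ libraries were 25.2 ± 6.13 TPM (SD, n = 8) and 25.0 ± 9.22 TPM (n = 7). The log2 fold change was 0.41 with 9 controls (interval -0.84 to 1.65, adjusted p = 0.96224 in limma) and -0.07 with 8 (interval -0.73 to 0.58).

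**Figure D2:**
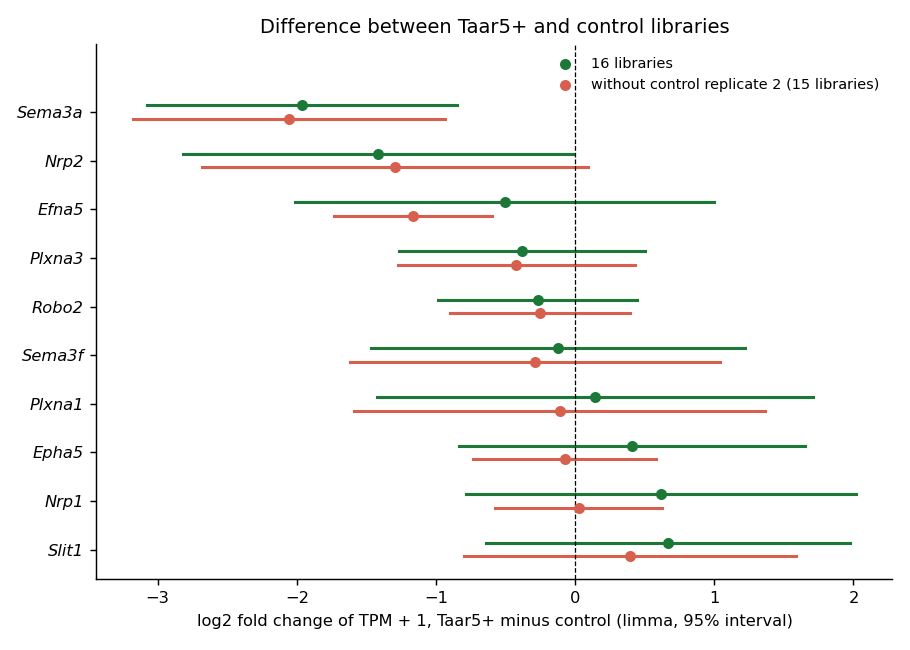
Log2 fold change of TPM + 1, Taar5+ minus control, for each guidance gene with its 95% interval from limma. Green points use all 16 libraries and red points leave out control replicate 2. Sema3a lies near -2 in both, the interval of Efna5 leaves out 0 only without that library, and the interval of Nrp2 reaches 0 only without it. The intervals of the other 7 genes span 0 in both.

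Pairs of genes that act together were compared within each library as differences of log2(TPM + 1). A factor common to both genes largely cancels only where both lie well above 1 TPM. It does not where a gene is near 0, as Sema3a, Sema3f and Slit1 were in some libraries. In Taar5+ replicates 4 and 6 Sema3a was listed at 0, so Sema3a minus Nrp1 was set there by Nrp1 alone. Nrp2 was below Nrp1 in all 7 Taar5+ libraries, by 0.33 to 5.26 log2 units in size (mean -1.76 ± 1.64, SD, n = 7). In the controls it was below Nrp1 in 6 of 9. The control mean was 0.27 ± 2.26 (n = 9) with replicate 2, which stood at 6.01, and -0.44 ± 0.74 (n = 8) without it. The lowest of these 8 controls, at -2.08, lay among the Taar5+ libraries. The 2 groups thus overlapped for this pair.

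Sema3a minus Nrp1, ligand against receptor, averaged -4.29 ± 1.09 in Taar5+ libraries (SD, n = 7) and -1.71 ± 1.62 in the controls (n = 9), or -2.21 ± 0.63 without replicate 2 (n = 8). The Taar5+ values ran from -5.91 to -2.64 and the values of those 8 controls from -2.91 to -1.20, so that they met at Taar5+ replicate 5. Efna5 minus Epha5 averaged 0.18 ± 0.73 in Taar5+ libraries (n = 7), 1.09 ± 0.72 in the controls (n = 9) and 1.27 ± 0.52 without replicate 2 (n = 8). Efna5 was above Epha5 in all 8 of those controls and in 4 of 7 Taar5+ libraries. The groups overlapped, since Taar5+ replicates 2 (0.87) and 5 (1.01) lay above the lowest of those 8 controls (0.725). Sema3f minus Nrp2 was -1.22 ± 0.79 in Taar5+ libraries, -2.51 ± 1.65 in the 9 controls and -2.22 ± 1.50 in the 8. Slit1 minus Robo2 was -1.64 ± 0.59, -2.58 ± 1.21 and -2.29 ± 0.88 in the same order. Plxna1 minus Plxna3 was -1.03 ± 0.41, -1.55 ± 1.62 and -1.34 ± 1.60. Since these balances reuse the values above, they were not tested.

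**Figure D3:**
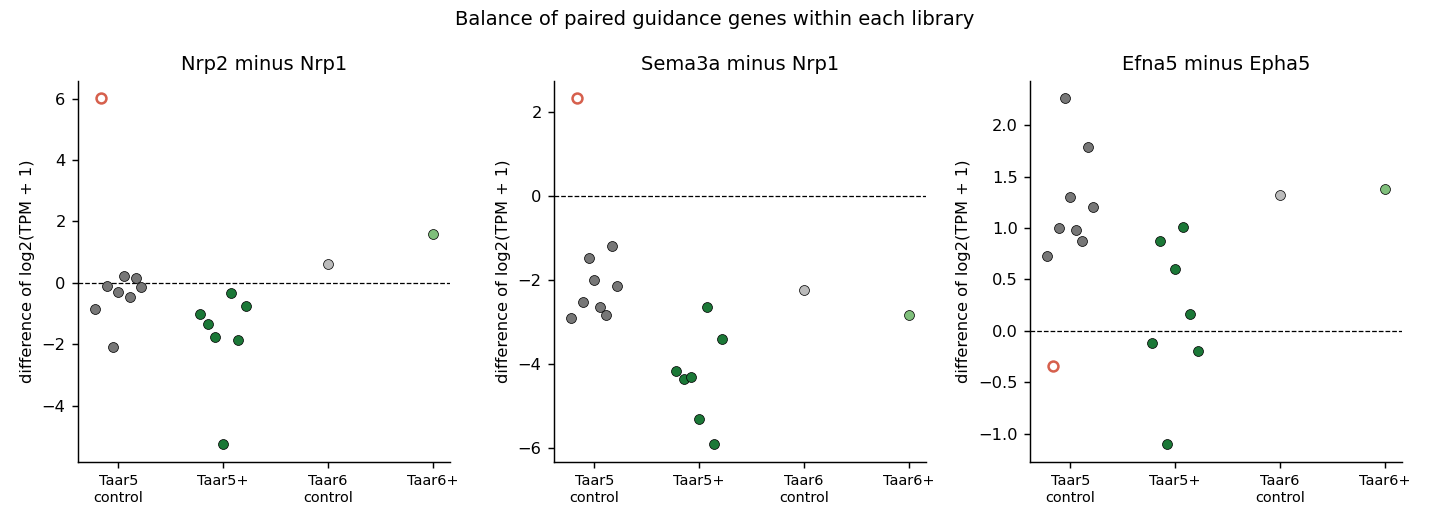
Difference of log2(TPM + 1) within each library for Nrp2 minus Nrp1, Sema3a minus Nrp1 and Efna5 minus Epha5. Each point is a library, and the open red circle is control replicate 2. In Taar5+ libraries Nrp2 was below Nrp1 in 7 of 7, and Sema3a minus Nrp1 ran from -5.91 to -2.64.

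In Taar5+ cells the order of the mean levels, from high to low TPM, was Plxna3, Nrp1, Efna5, Epha5, Robo2, Plxna1, Nrp2, Slit1, Sema3f and Sema3a. Only 2 neighbouring pairs in that order differed by more than the SD of their paired log2 difference: Nrp1 over Efna5, in 6 of 7 libraries, and Sema3f over Sema3a, in 6 of 7. In the 9 controls the order began with Efna5, Plxna3, Nrp2 and Nrp1 and ended with Sema3a, Sema3f and Slit1, and no pair of neighbours differed beyond that spread. Without control replicate 2, Epha5 exceeded Sema3a in 8 of 8 controls. The secreted ligands were the lowest of the group in both kinds of cell, at percentiles 20.9, 24.3 and 25.2 of the mean levels of all tested genes for Sema3a, Sema3f and Slit1, while Plxna3, Efna5 and Nrp1 stood at 73.9, 71.9 and 70.2.

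Other measures differed between the groups beside these genes. The summed OR level was 225 to 5525 TPM in Taar5+ libraries and 6174 to 20251 TPM in controls, of which replicate 2 was the lowest and the other 8 began at 13477 TPM. Taar5+ replicate 5, with the highest OR total, also had the highest Sema3a, Nrp2 and Efna5 values and the lowest summed Taar level of the Taar5+ group, 1517 TPM against 4542 to 7804 TPM in the others. The 4 genes Ncam2, Nfia, Nfib and Nfix, which mark OSNs of the ventral zone, summed to 19.0 to 71.4 TPM in Taar5+ libraries (median 44.0) and to 71.4 to 118 TPM in controls (median 74.2). Among them Ncam2 had similar means, 28.8 and 30.7 TPM, and Nfix had 7.16 and 38.7 TPM (adjusted p = 0.072779 in limma). Of the dorsal zone markers, Nqo1 fell by 2.48 on the log2 scale (adjusted p = 0.00031195 in limma) and Acsm4 rose by 1.53 (adjusted p = 0.0099411 in limma). The part of receptor choice and zone in the values of the 3 genes was not tested.

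**Figure D4:**
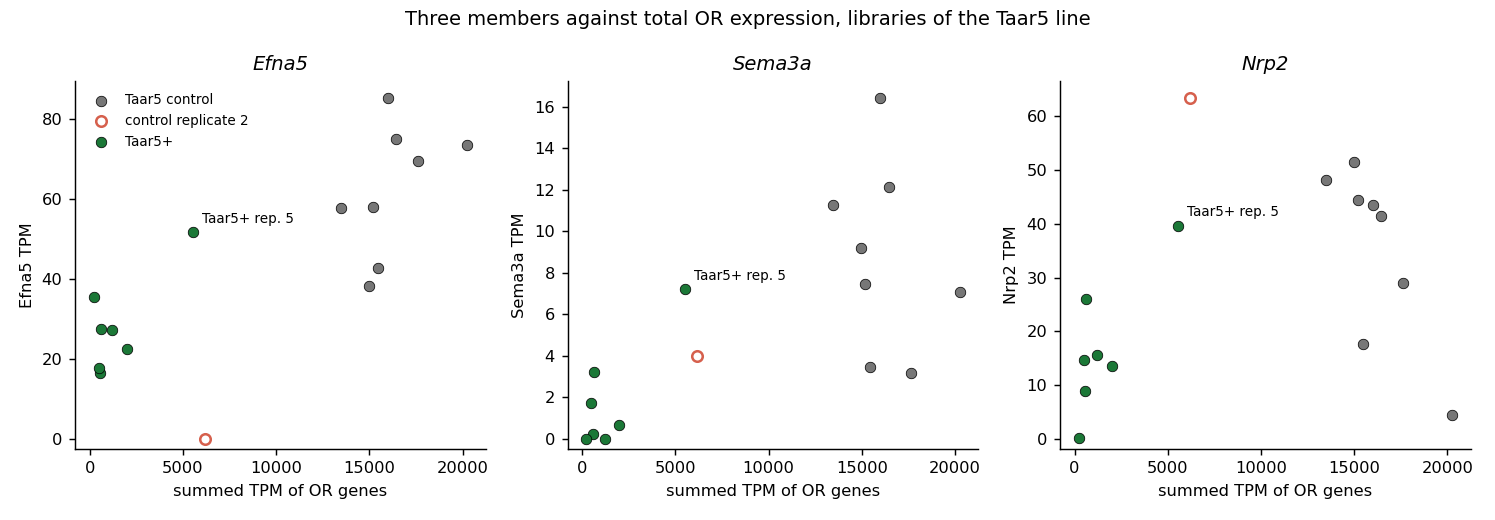
TPM of Efna5, Sema3a and Nrp2 against the summed TPM of all OR genes in the 16 libraries of the Taar5 line. Each point is a library. Taar5+ replicate 5, at an OR total of 5525 TPM, has the highest value of the Taar5+ group in all panels, and control replicate 2 is the open red circle.

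Markers of other cells of the MOE were read the same way. Those of horizontal basal cells, which are stem cells, summed to 0 to 181 TPM in Taar5+ libraries (median 5.01) and 0 to 123 TPM in controls (60.1 to 123 TPM without replicate 2), and 3 of 3 were lower at an unadjusted p of 0.05. Those of ensheathing glia summed to 0 to 109 TPM (median 18.2) and 16.4 to 203 TPM (median 58.9), with 4 of 4 tested genes at a negative log2 fold change and 0 past that p. Mesenchymal markers summed to 4.03 to 346 and 0 to 293 TPM. Endothelial markers summed to 1.58 to 47.3 and 10.2 to 51.6 TPM, and the defining markers Kdr and Flt1 were at 0 in all controls. Microvillar cell markers summed to 0.266 to 175 TPM (median 5.73) and 12.6 to 608 TPM (median 122), and blood and immune markers to 5.71 to 1425 and 4.67 to 6197 TPM. Markers of sustentacular cells, the supporting cells, reached 9078 TPM in control replicate 2 and 7417 TPM in Taar5+ replicate 5, the libraries on which the calls of Efna5 and Sema3a turned, and at most 1755 TPM in the other 14. Taar5+ replicate 5 also had the highest horizontal basal, glial, endothelial, mesenchymal and microvillar sums of its group. Sema3a and Efna5 can be expressed by cells other than neurons, and in sorted bulk RNA fewer cells of a type and less RNA per cell cannot be told apart. The part of these cells in the differences was not tested.

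Markers of mature OSNs summed to 20668 to 28231 TPM in Taar5+ libraries and 13394 to 47687 TPM in controls, and those of immature OSNs, which still extend axons, to 1092 to 1843 and 317 to 3029 TPM. Omp, the defining gene of mature OSNs, averaged 14669 TPM in Taar5+ and 12131 TPM in control libraries. Without control replicate 2 the lowest control sum of mature OSN markers was 21737 TPM. Of the 6 mature markers, Stoml3 fell by 1.42 on the log2 scale (adjusted p = 0.0099411 in limma), with means of 5510 TPM in Taar5+ and 15101 TPM in control libraries. The other 5 had positive log2 fold changes, such as 0.38 for Omp (adjusted p = 0.93416 in limma), and none of them passed. Gap43, a growth cone gene of immature OSNs, had a log2 fold change of -0.20 (adjusted p = 0.98078 in limma).

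Beyond the 10 genes, a list of 90 axon guidance genes that includes them was followed, of which 55 passed the filter on low values. None of the 55 passed the adjusted threshold with 16 libraries, and the genes past an unadjusted p of 0.05 were again Sema3a and Nrp2, so that 0 of the 45 others were. Of these 45, 27 had a positive and 18 a negative log2 fold change, with a median of 0.16. That tally turned without control replicate 2, to 15 positive and 30 negative with a median of -0.07, as the tally of all genes did. The lowest p values of all 45 belonged to 3 genes. Sema6d, a transmembrane semaphorin, had 0.800 ± 0.945 TPM in Taar5+ and 3.33 ± 3.14 TPM in control libraries (log2 fold change -1.04, adjusted p = 0.75628 in limma). Crmp1, an intracellular mediator of Sema3a signalling, had 107 ± 42.8 and 164 ± 73.2 TPM (-0.60, adjusted p = 0.77828 in limma). Mical3, a member of a family of semaphorin effectors, had 14.1 ± 3.95 and 8.69 ± 6.30 TPM (1.08, adjusted p = 0.84673 in limma).

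Within the families of that list, the relatives of the 10 genes gave the following values. Of the 7 class 3 semaphorins, only Sema3a, Sema3f and Sema3e passed the filter, and Sema3e had 4.98 ± 3.65 TPM in Taar5+ and 2.79 ± 2.51 TPM in controls (log2 fold change 0.68, adjusted p = 0.94797 in limma). Robo1, the other tested Slit receptor, had 10.01 ± 3.28 and 8.40 ± 4.15 TPM (0.43, adjusted p = 0.95573 in limma). Of 14 Eph receptors 4 were tested, and Epha7 was close to Epha5 in level, with 25.8 ± 7.99 and 25.2 ± 15.2 TPM. The ephrins Efna1 and Efna4, like Efna5 ligands of EphA receptors, had log2 fold changes of -0.95 and -0.79 with adjusted p of 0.94585 and 0.95409 in limma, and each overlapped the controls fully. Plxnd1 and Plxnb3, relatives of the plexins above, were low, at 0.572 and 1.998 TPM in Taar5+ against 1.74 and 4.91 TPM in control libraries. With library weights 7 of the 55 passed, all lower, where 9.7% of all genes did so: Efna4, Efna5, Ephb4, Plxnb3, Plxnd1, Sema3a and Sema6d.

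The Taar6 line gave 1 library of each kind, so its values have no replicate check. Sema3a measured 5.80 TPM in the Taar6+ library and 11.1 TPM in its reporter-negative counterpart (-0.83 on the log2(TPM + 1) scale). Nrp2 was at 143.8 and 86.2 TPM (0.73), which is the opposite direction to the Taar5 line, and Nrp2 exceeded Nrp1 in both libraries. Efna5 was at 78.5 and 73.0 TPM (0.10). Of the 10 genes 5 had the same sign as in the Taar5 line, and their median difference, -0.19, matched that of all genes, -0.19.

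For 6 of the 10 genes, Nrp2, Sema3f, Plxna1, Plxna3, Robo2 and Slit1, both libraries of the Taar6 line lay above every library of the Taar5 line, as they did for 22.9% of the 12502 genes tested. Slit1, for example, was at 57.4 and 57.8 TPM there and reached at most 17.2 TPM in the Taar5 line. The housekeeping gene Gapdh was at 1.43 TPM in Taar6+ and 6.06 TPM in the reporter-negative library, against 436 to 1222 TPM in the Taar5 line, and Ppia was listed at 0 in both. Line, reporter, age and any difference in how the values were made cannot be told apart, and no test was made between the lines.

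Genes whose values ran most like those of each guidance gene over the 16 libraries of the Taar5 line were found by Spearman's rho among all tested genes. For Efna5 they were the OR genes Olfr1100 (0.93) and Olfr1162 (0.92), whose mean levels were 0.480 and 0.679 TPM in Taar5+ against 18.8 and 48.8 TPM in control libraries. For Sema3a they were Olfr1229 (0.88) and Eif6 (0.87), for Nrp2 4930453N24Rik (0.95) and Mon1b (0.92), and for Nrp1 Hps4 (0.93) and Pip5k1c (0.91). For Sema3f, with a log2 fold change of only -0.12, they were Olfr67 (0.94), also an OR gene, and Mms22l (0.92). These are the highest of many coefficients, and the points share group, library complexity and the zeros of control replicate 2. Among the guidance genes themselves, the highest rho was 0.73, for Nrp2 with Sema3a. Next came Plxna1 with Slit1 (0.72), Nrp2 with Robo2 (0.71), Nrp1 with Plxna1 (0.70) and Sema3a with Efna5 (0.69). For Nrp2 with Efna5 rho was 0.23. Without control replicate 2 the order changed: Nrp2 with Sema3a (0.80), Nrp1 with Robo2 (0.77), Sema3a with Efna5 (0.765) and Robo2 with Slit1 (0.75) were highest. Plxna1 with Slit1 was then at 0.66 and Nrp2 with Efna5 at 0.49. Across libraries Sema3f had a rho of 0.84 with the number of genes above 0.

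In the GRCm38 assembly with the GENCODE M21 annotation the 10 genes lie on 9 chromosomes. Sema3a spans chr5:13125414-13602565 on the plus strand, and Epha5 chr5:84054761-84417382 on the minus strand of the same chromosome. Nrp2 lies at chr1:62703285-62818695 (plus), Nrp1 at chr8:128358604-128503363 (plus) and Efna5 at chr17:62604184-62881317 (minus). Of the exon bases of Plxna1, 10.7% also belong to the gene Gm26811, so a read there could come from either gene.

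Promoters from RefSeq (GRCm38.p6, 250 bases before to 50 after a start) matched 7 of the 10 genes, and the starts used for Sema3a, Nrp1 and Nrp2 lie inside the GENCODE spans above. That of Sema3a follows chr5:13396783, whereas its span begins at chr5:13125414, so it may be an internal start. Those of Nrp2 and Nrp1 follow chr1:62703316 and chr8:128359072, close to where their spans begin. Which start these cells use was not tested. The promoters of the 3 genes with the most negative log2 fold changes differed in base composition: that of Sema3a had 41.3% GC and 2 CpG dinucleotides, that of Nrp2 70.7% and 37, and that of Efna5 73.3% and 38, beside a median of 52.7% and 7 over 32851 promoters. The 30 bases just before the start are shown 5′ to 3′ for these 3 and for Nrp1, the other neuropilin, with CpG in capitals, at chr5:13396754-13396783 (plus), chr1:62703287-62703316 (plus), chr17:62881318-62881347 (minus) and chr8:128359043-128359072 (plus), in this order.
Sema3a: cagttgctaatagccttcattgtggtacaa
Nrp2: aaggggCGggccctgagCGggCGCGtaatc
Efna5: tgCGagtttgtcccccCGccccagccactg
Nrp1: ggagaaagtccttgctctccCGctcatctt
On both strands of the whole promoters, the homeodomain motif TAATTA was found in 1 of the 7 matched genes, Epha5, and in 5.29% of all promoters. The GC box, GGGCGG on either strand, was found in 5 of the 9, those of Nrp2, Efna5 and Nrp1 among them, and in 35.7% of all promoters. These 5 had 64.0% to 73.3% GC, above the median of all promoters, so that share is not a matched background. These are matches of letters in these windows alone.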

How the data were processed

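RNA-seq values of 18 libraries of sorted MOE cells were used. Per the paper's methods and the submitters' processing notes, the authors used the Smart-seq2 protocol (full-length cDNA, PCR, no molecular identifiers) and ran Trimmomatic 0.36, HISAT2 2.1.0 and Cufflinks 2.2.1 with mm10. The authors deposited TPM in 1 table. How TPM were made from the Cufflinks output, the annotation, filters, strand and multi-mapped reads are not given in the sources used here. TPM do not carry read depth. It is unknown here, and intervals for counting error are not given.

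The 488 rows that repeat a symbol were summed; 0 of these were guidance genes. Taar values of control replicate 2 equal those of replicate 1 (13 genes) and were set as missing. The test was limma 3.58.1 under R 4.3.3 (eBayes with trend), run on genes that reached 1 TPM in 7 or more of the 16 libraries of the Taar5 line. Values entered as log2(TPM + 1), a scale that understates changes of low genes. It was used with Benjamini-Hochberg adjustment over all genes tested, a threshold of 0.05 and 95% intervals. Scripts were tested on simulated data. The guidance genes, lists and tests were chosen with earlier results of these data known. Other genes of the wider list were named from up to 3 per family with the lowest p, and those called under library weights. For each guidance gene, the pair of genes with the highest Spearman's rho was computed, and those of Efna5, Sema3a, Nrp2, Nrp1 and Sema3f are named. Positions came from GENCODE M21 and promoters from RefSeq. Alternatives were another pseudocount, filters, scalings, weights, a replicate block and libraries left out.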

Additional observations from a re-analysis of the deposited data

Results flagged for a closer look

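Of 20 groups of values (10 guidance genes in Taar5+ and in control libraries), 1 held a library far from the rest of its group, and chance gives about 1 in 20. Plxna3 in control replicate 8 was at 119.7 TPM, while the other controls ran from 18.7 to 63.5 TPM.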

How the results depend on the processing

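Over 28 alternatives each, 259 of 280 values of the 10 guidance genes kept their direction and side of the threshold, 7 passed the threshold anew (1 of these, Sema3a, only in the unadjusted exact permutation test) and 14 changed sign. Some of these alternatives changed only the filter, the variance estimate, the rows of repeated symbols or the test. They left the log2 fold changes of the guidance genes as they were, so direction could not change there. With 16 libraries 0 guidance genes were called. There were 2 with library weights (Sema3a -1.57, adjusted p = 0.006145, and Efna5 -1.26, adjusted p = 0.0004681, in limma) and 2 without both control replicate 2 and Taar5+ replicate 5 (Sema3a -2.38, adjusted p = 0.01112, and Efna5 -1.32, adjusted p = 0.007397, in limma), and 0 to 1 when 1 library was left out. In the wider list the counts were 0, 7, 2 and 0 to 1. Over all genes, 21 were called, 18 higher and 3 lower in Taar5+. That count was 11 (8 higher, 3 lower) after rescaling without receptor genes, 109 (35 and 74) after quantile normalization, 1410 (197 and 1213) with library weights, 337 (49 and 288) without both libraries, and 16 to 148 without single libraries, with 148 for control replicate 2 and 66 for Taar5+ replicate 5. The median log2 fold change of all genes was 0.02, and it was -0.16 with library weights, -0.21 without both libraries and 0.11 without Taar5+ replicate 4.

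Signs changed only in genes that were never called. Nrp1 was -0.025 without both libraries. Plxna1 was -0.055 with quantile normalization, -0.49 with weights, -0.22 without both libraries and -0.36 to 0.39 without single libraries. Plxna3 was 0.045 with weights. Epha5 was -0.092 without both libraries and -0.074 to 0.63 without single libraries, and Sema3f was -0.38 to 0.28. The cause was not tested.

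Samples with the same replicate number deviated together with correlations of -0.0096 to 0.28, over 0.1 in 5 of 7, and 3 of the 7 numbers correlated best with their own. The numbers were not taken to pair the libraries, since that was not so for every number. With the replicate number as a block, 12 genes and 0 guidance genes were called. Depth is unknown, so a listed 0 sets no limit on expression.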
